A study of Danio rerio with 6 samples.

Results

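The genes described here encode the proteins of the cytosolic ribosome, and their mRNA levels were compared between heads of *tulp1*-dKO larvae and wt larvae at 4 dpf. Members were chosen by name, as every entry whose symbol starts with rpl or rps and a digit, is rpsa, or begins with rplp. The names of 11 S6 kinases that match this pattern were left out of the 96 that matched. The remaining 85 entries, of 32520 listed genes, comprised 48 with a large subunit name, 36 with a small subunit name and *rps19bp1*, which encodes a protein that binds Rps19 and is not itself a ribosomal protein. The 3 *tulp1*-dKO samples carry knockouts of both *tulp1a* and *tulp1b*, made with CRISPR/Cas9, and the 3 wt samples are wild type. Both groups are of the AB strain, and RNA was taken from whole dissected heads rather than from eyes or sorted photoreceptors. The number of heads in a sample is not given in the sources used here, nor whether the samples of a group came from separate clutches, so the p-values measure only the spread between these samples. Levels are given as TPM, a transcript share that corrects for gene length and sets each library to the same total. Sequencing depth cannot be read from TPM, so error is judged from the spread between samples. An SD is taken from the 3 samples of its group. Standard errors and p-values of limma pool the spread of both groups and are moderated by a trend over all genes tested.

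A ribosome is built from a large and a small subunit, each made of ribosomal RNA and a set of small, mostly basic proteins, and a complete ribosome needs nearly all of these proteins in equal amounts. Their genes are scattered over the genome but are usually expressed together, and in vertebrates their mRNAs begin with a pyrimidine tract through which the mTOR pathway controls their translation. When the supply of ribosomal proteins and ribosomal RNA falls out of balance, free Rpl5 and Rpl11 bind Mdm2 and stabilise p53, and zebrafish larvae that lack a single ribosomal protein commonly have small heads and eyes.

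Both targeted genes were lower in the *tulp1*-dKO samples, with *tulp1a* at 16.01, 14.4 and 15.8 TPM against 25.3, 24.98 and 23.7 TPM in wt, and *tulp1b* at 2.71, 2.01 and 2.37 TPM against 13.1, 11.9 and 9.77 TPM in wt. Of 30 marker entries of photoreceptors, the cells in which Tulp1 is known to act, 19 fell at an adjusted p of at most 0.05 (limma). By this rule 1.22% of all genes tested fell. At an unadjusted p of at most 0.05 (limma), 25 were lower and 2 higher, and log2 fold changes were below 0 for 27 and above 0 for 3. The 30 entries summed to 4025 to 7215 TPM in *tulp1*-dKO heads against 17661 to 19335 TPM in wt heads. In whole heads, fewer cells of a type and less RNA per cell cannot be told apart. The paper describes *tulp1a* and *tulp1b* as expressed in every photoreceptor type, so their lower levels do not by themselves verify the genotype labels. Summed markers of skeletal muscle were 15654 to 17171 TPM against 13641 to 14573 TPM in wt, and those of dividing cells 1884 to 1916 TPM against 1646 to 1772 TPM in wt. The ranges of epidermis (11624 to 12493 TPM against 10967 to 11647 TPM in wt), neurons (4513 to 5480 TPM against 4734 to 5362 TPM in wt), pancreas and gut (1508 to 6474 TPM against 1423 to 2381 TPM in wt), lens, erythrocytes and microglia overlapped between the groups. At an adjusted p of at most 0.05 (limma), 1 muscle entry and 1 epidermis entry rose, and 2 entries of microglia fell (both named *mfap4*). Of dividing cells, 1 entry rose (log2 fold change 0.79) and 1 fell (−3.13), and both bear the same gene name. No entry of the other lists changed by this rule. By an unadjusted p of 0.05 or less, which 17.1% of all genes tested reached, muscle had 9 higher and none lower of 23 entries, dividing cells 10 higher and 1 lower of 26, epidermis 4 higher and 4 lower of 15, and microglia 5 higher and 3 lower of 25. By the same rule pancreas and gut had 4 higher and none lower of 19, lens 2 higher and 1 lower of 22, erythrocytes 1 higher of 14, and neurons none of 16. Log2 fold changes were above 0 for 24 of the 26 entries of dividing cells, 20 of 23 of muscle and 18 of 25 of microglia, beside 13259 of all 22824 genes tested. They were also above 0 for 18 of 19 of pancreas and gut, with a median of 0.90, and below 0 for 13 of 14 of erythrocytes. Epidermis had 7 above and 8 below 0, neurons 7 above and 9 below, and lens 9 above and 13 below. No marker entry of these lists was at 0 in all samples. The part of these shifts in the results on ribosomal protein genes was not tested.

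Ribosomal protein mRNAs were among the most abundant in the head. Their mean over the 6 samples ran from 10.6 TPM for *rps8b* to 3905 TPM for *rps29*, with a median of 2109 TPM, and 71 of 85 were at 1000 TPM or more. They made up 28, 31 and 31 of the 50 most abundant genes in *tulp1*-dKO samples 1, 2 and 3, and 29, 28 and 27 in wt samples 1, 2 and 3. The 5 most abundant were *rps29*, a zinc-binding protein of the small subunit, *rpl39*, a very short protein that lines the exit tunnel, *rps12*, the stalk copy *rplp2l*, and *rpl6*. For *rps29* the level was 3667, 4004 and 4163 TPM in *tulp1*-dKO samples against 3952, 3790.5 and 3853 TPM in wt samples, so that *tulp1*-dKO samples lay on both sides of wt. Only 5 members averaged below 100 TPM, namely *rps8b*, the weaker of 2 entries named *rpl37*, *rps19bp1*, *rps27l* and *rpl7l1*. All 85 passed the filter of 0.5 TPM on the mean, and none was at 0 in any sample.

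Summed over all members, the level was 163266, 173715 and 177234 TPM in *tulp1*-dKO samples against 169554, 169630.1 and 166816 TPM in wt samples. These sums were 17.2%, 18.3% and 18.7% of the listed TPM in *tulp1*-dKO and 17.9%, 17.9% and 17.6% in wt. *tulp1*-dKO sample 1 was thus below every wt sample and *tulp1*-dKO samples 2 and 3 were above every wt sample. The group means were 171405 ± 7265 TPM in *tulp1*-dKO and 168667 ± 1603 TPM in wt (SD, n = 3 each), and their difference of 2738 TPM is smaller than the SD of the *tulp1*-dKO samples. With samples scaled by the median ratio across genes in place of the common TPM total, the difference turned to −2671 TPM. The large subunit genes summed to 96870 ± 3747 TPM in *tulp1*-dKO and 95380 ± 791 TPM in wt, and the small subunit genes to 74512 ± 3519 TPM in *tulp1*-dKO and 73268 ± 857 TPM in wt (SD, n = 3 each), so that both subunits followed the same course.

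Gene by gene, changes were tested with limma on log2(TPM + 0.1), with Benjamini-Hochberg adjustment over the 22824 genes that passed the filter. The constant of 0.1 shrinks the fold changes of very low genes and hardly touches those of abundant ones. No ribosomal protein gene passed the study's thresholds, a change of at least 2-fold with an adjusted p of at most 0.05, which 1.32% of all genes tested passed, and none passed them with an unadjusted p in place of the adjusted one. The study applied these thresholds to DESeq2, whereas here they were applied to limma on TPM. The calls of these tests can differ, so a gene not called here may be called there. At an adjusted p of at most 0.05 with no minimum fold, 2 of 85 members (2.35%) changed, against 1.89% of all genes tested. *rpl31* rose (0.67% of all genes rose by this rule) and *rps27.1* fell (1.22% of all genes fell). At an unadjusted p of at most 0.05, 6 of 85 members passed, against 17.1% of all genes tested. The share of members called is close to the background by the first 2 rules and below it by the last.

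**Figure D1:**
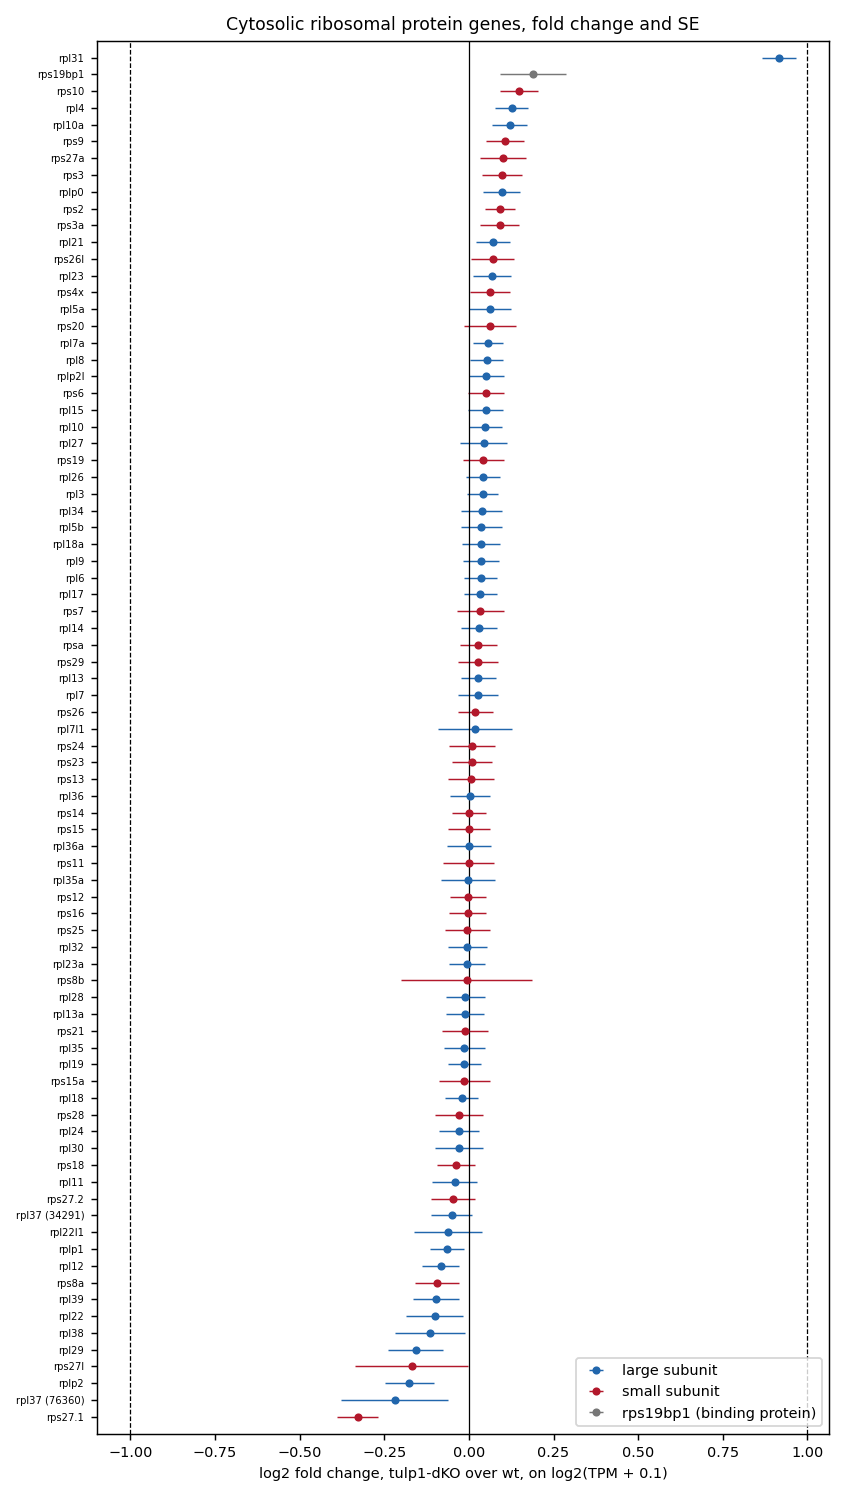
Log2 fold change (*tulp1*-dKO over wt, x axis) of 82 of the 85 members (y axis, ordered by fold change), with bars for the limma standard error and colours for the subunit, and dashed lines at a change of 2-fold. *rpl31* stands at 0.92, the next member at 0.19 and the lowest, *rps27.1*, at −0.33, and 68 of those shown lie within 0.1 of 0. The numbers after *rpl37* are the last digits of the gene identifiers of its 2 entries.

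The members as a group stayed close to their wt level. The median log2 fold change was 0.01 over the 85 members, 0.02 over the large subunit and 0.01 over the small subunit, beside 0.05 over all genes tested. Of the members, 47 had a log2 fold change above 0 and 38 below 0, beside 13259 above and 9565 below of all 22824 genes tested. The split of the members turned to 24 above and 61 below under median ratio scaling and to 56 above and 29 below under quantile normalization. The log2 fold changes of 70 members were within 0.1 of 0 and those of 82 were within 0.2 of 0. The 3 members outside this range were *rpl31*, *rps27.1* and the weaker *rpl37* entry, whose 16.3, 11.6 and 17.1 TPM in *tulp1*-dKO samples overlapped with the 16.8, 18.1 and 16.7 TPM in wt samples. The median standard error of a member was 0.06 on the log2 scale, against 0.16 for all genes tested. It was 0.08 for the 322 other genes that average 300 TPM or more.

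*rpl31* (ENSDARG00000053365) encodes a protein of the large subunit that lies near the end of the exit tunnel, where nascent chains and the factors that receive them meet the ribosome. Its level was 1838, 1832 and 1920.2 TPM in *tulp1*-dKO samples 1, 2 and 3 against 984, 1003 and 975 TPM in wt samples 1, 2 and 3. Every *tulp1*-dKO sample was far above every wt sample, and the samples within each group were close to each other. The means were 1863 ± 49.3 TPM in *tulp1*-dKO and 987 ± 14.1 TPM in wt (SD, n = 3 each), a rise of 1.89-fold. The log2 fold change was 0.92 with a standard error of 0.05 (adjusted p = 0.000795, limma), just under the 2-fold threshold. An exact two-sided permutation test of the 3 against 3 values gave p = 0.1, the smallest that this design allows. In wt heads *rpl31* ranked 72 of the 85 members by mean TPM, and in *tulp1*-dKO heads it ranked 52, and 51 members thus remained more abundant than it.

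The rise of *rpl31* did not follow the other members within a sample. Per 1000 TPM of ribosomal protein mRNA, *rpl31* made up 11.3, 10.5 and 10.8 TPM in *tulp1*-dKO samples against 5.80, 5.91 and 5.85 TPM in wt samples. Relative to the wt mean, it was higher by 0.90, 0.89 and 0.96 on the log2 scale in *tulp1*-dKO samples 1, 2 and 3, while the median member stood at −0.07, 0.04 and 0.07 in the same samples. The highest other member in any *tulp1*-dKO sample stood at 0.25. *tulp1*-dKO sample 1, in which most members were below the wt mean, thus had about the same *rpl31* excess as the other *tulp1*-dKO samples.

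**Figure D2:**
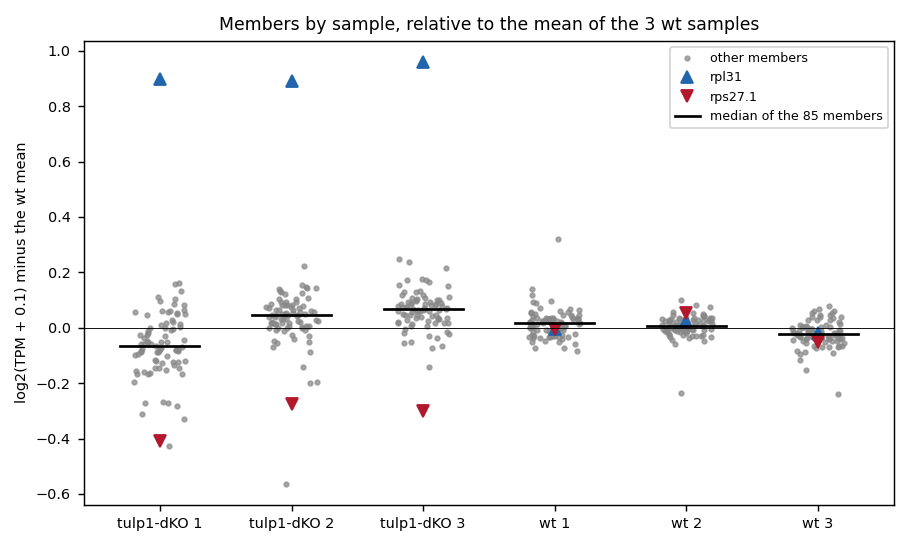
Each member's log2(TPM + 0.1) minus its mean over the 3 wt samples (y axis) in each sample (x axis), with *rpl31* as upward triangles, *rps27.1* as downward triangles, other members as grey points and the median of the 85 members as a line. *rpl31* lies at 0.89 to 0.96 in the 3 *tulp1*-dKO samples, above all other members, and the median line lies at −0.07, 0.04 and 0.07 in *tulp1*-dKO and between −0.02 and 0.02 in wt.

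Of the ribosomal proteins proper, the next largest positive value after *rpl31* was that of *rps10*, a small subunit protein at the mRNA entry side and one of the genes mutated in Diamond-Blackfan anaemia. It stood at 2153, 2206 and 2393 TPM in *tulp1*-dKO samples against 2029.7, 2055 and 2001 TPM in wt samples. The groups did not overlap, but the log2 fold change of 0.15 (standard error 0.06) did not pass the test (adjusted p = 0.249, limma). The gap between *rpl31* and the next ribosomal protein is therefore one between 0.92 and 0.15 on the log2 scale. The SD of the log2 fold changes was 0.13 over the 85 members and 0.08 over the 84 without *rpl31*. These figures describe how far *rpl31* stands from the other members and carry no test.

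The same level of change was uncommon among other abundant genes. With a floor of 300 TPM on the mean, chosen after the values were seen, 402 genes remained, of which 80 were members. *rpl31* had the smallest p of the 402, and the 9th smallest of all 22824 genes tested. Of these 402 genes, 4 rose and 12 fell at an adjusted p of at most 0.05. The other 3 that rose were the keratin genes *krtt1c19e* (log2 fold change 0.51) and *cyt1* (0.38) and the myosin gene *myhz1.2* (0.41). The 12 that fell included the rod opsin gene *rho* (−2.76), the ultraviolet cone opsin gene *opn1sw1* (−2.39) and *rps27.1*. Log2 fold changes at least as high as that of *rpl31* were found in 4 of the 402 genes, itself included, and the other 3 did not pass the test.

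**Figure D3:**
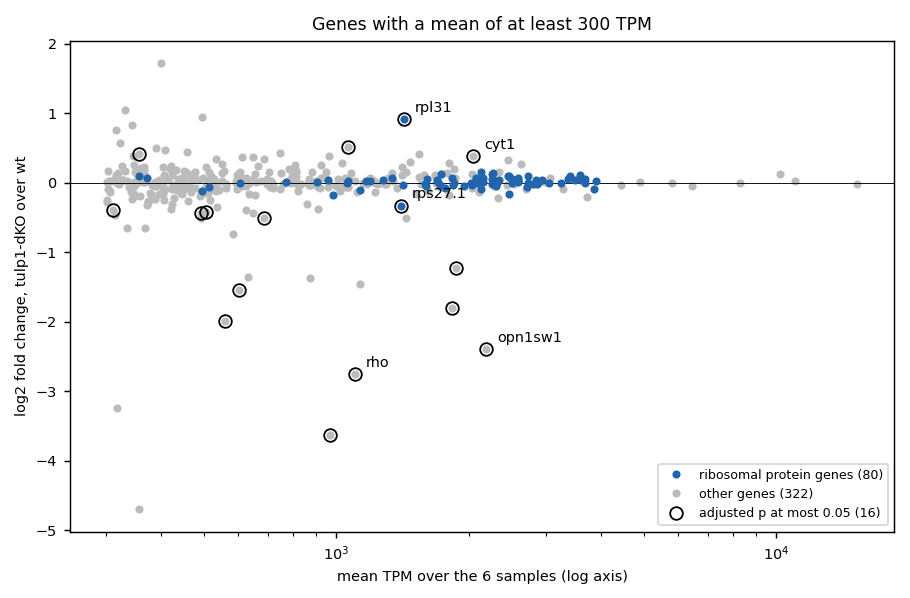
Log2 fold change (*tulp1*-dKO over wt, y axis) against mean TPM over the 6 samples (log x axis) for the 402 genes that average 300 TPM or more, with the 80 ribosomal protein genes among them in blue, the 322 other genes in grey and rings around the 16 genes with an adjusted p of at most 0.05. *rpl31* is the highest ringed point at 0.92, while most of the other blue points lie within 0.1 of 0.

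**Figure D4:**
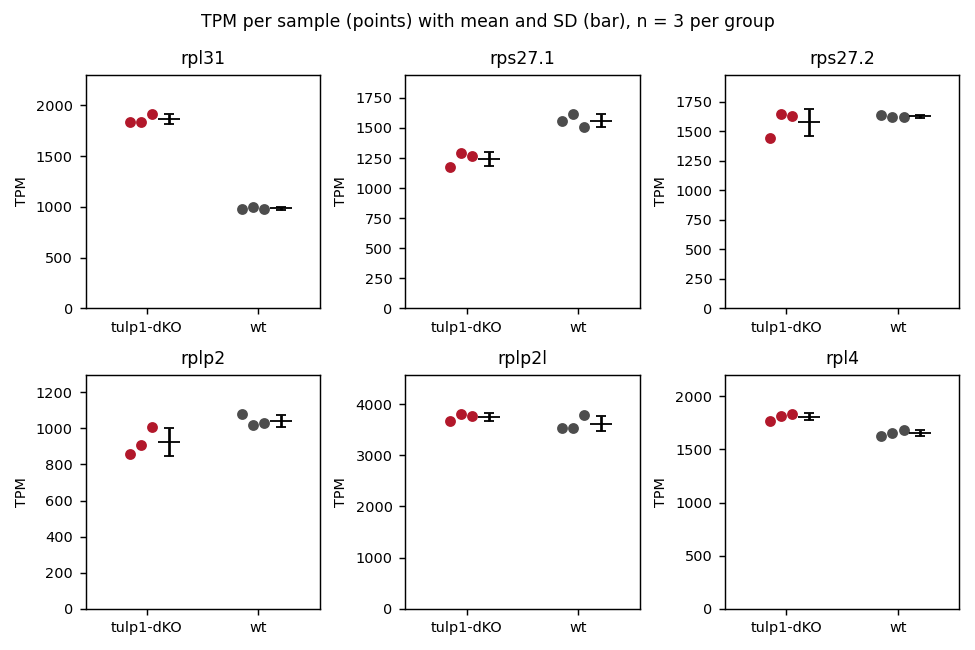
TPM (y axis, from 0) of *rpl31*, *rps27.1*, *rps27.2*, *rplp2*, *rplp2l* and *rpl4* in each sample of *tulp1*-dKO and wt, with the mean and SD of each group (n = 3). The groups are far apart for *rpl31* (1863 against 987 TPM), apart with the opposite sign for *rps27.1* (1244 against 1562 TPM), and overlap for *rps27.2* and *rplp2l*.

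*rps27.1* (ENSDARG00000023298) was the only member that fell. With *rps27.2* it is one of 2 zebrafish genes for Rps27, a zinc finger protein of the small subunit, and the related *rps27l* is a p53 target in mammals. Its level was 1177, 1289 and 1267 TPM in *tulp1*-dKO samples against 1558, 1620.3 and 1507 TPM in wt samples. All *tulp1*-dKO values were below all wt values, with means of 1244 ± 59.0 TPM in *tulp1*-dKO and 1562 ± 56.8 TPM in wt (SD, n = 3 each). The log2 fold change was −0.33 with a standard error of 0.06 (adjusted p = 0.0472, limma), and the call rests on the choice of fit. The log2 fold change itself ran from −0.38 to −0.28 over 17 alternatives and from −0.35 to −0.29 with a sample left out. The call held in 5 of 17 alternatives, with adjusted p from 0.0391 to 0.225, and it was lost whichever of the 6 samples was left out (adjusted p from 0.0845 to 0.191, limma).

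The other Rps27 genes did not show the same difference. *rps27.2* had 1448, 1651 and 1633 TPM in *tulp1*-dKO samples against 1641, 1622 and 1619.9 TPM in wt samples, with a log2 fold change of −0.05. *rps27.1* made up 44.8%, 43.8% and 43.7% of the summed TPM of *rps27.1* and *rps27.2* in *tulp1*-dKO samples, against 48.7%, 49.98% and 48.2% in wt samples. The shares did not overlap (exact two-sided permutation test, p = 0.1, the smallest possible), but reads that fit both copies can be assigned to either, so the split between them is uncertain. By level, 23.5% of all genes tested had groups that did not overlap. *rps27l* was low, at 28.4, 33.2 and 41.4 TPM in *tulp1*-dKO samples against 42.0, 40.9 and 32.3 TPM in wt samples, and the groups overlapped.

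The stalk of the large subunit, through which elongation factors are recruited, is formed by Rplp0 with dimers of Rplp1 and Rplp2. *rplp2* stood at 857, 910.1 and 1006 TPM in *tulp1*-dKO samples against 1081, 1017 and 1029 TPM in wt samples, a log2 fold change of −0.18 that did not pass the test (adjusted p = 0.277, limma). Its more abundant copy *rplp2l* stood at 3668, 3810.4 and 3770.1 TPM in *tulp1*-dKO samples against 3532, 3530.4 and 3792 TPM in wt samples, so that *rplp2* made up 18.9%, 19.3% and 21.1% of the pair in *tulp1*-dKO and 23.4%, 22.4% and 21.4% in wt. These shares did not overlap (exact two-sided permutation test, p = 0.1, the smallest possible), although *tulp1*-dKO sample 3 was close to the lowest wt sample. Among the pairs of copies compared, only this pair and that of *rps27.1* with *rps27.2* had shares that did not overlap. For scale, the levels of 23.5% of all genes tested did not overlap between the groups. The log2 fold changes of *rplp0* (0.10) and *rplp1* (−0.06) had adjusted p of 0.433 and 0.582 (limma).

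Other pairs of copies kept nearly the same split. *rpl5a* made up 51.4% ± 0.461 of the *rpl5a* and *rpl5b* sum in *tulp1*-dKO and 50.9% ± 0.709 in wt, and *rpl22l1* made up 31.5% ± 0.930 of its sum with *rpl22* in *tulp1*-dKO and 30.9% ± 0.795 in wt (SD, n = 3 each). *rps26l* made up 24.1% ± 0.356 of its sum with *rps26* in *tulp1*-dKO and 23.4% ± 1.048 in wt. The weak entries *rpl7l1* (3.42% of its pair in both groups), *rps8b* (0.508% in *tulp1*-dKO and 0.481% in wt) and the second *rpl37* entry (0.781% in *tulp1*-dKO and 0.861% in wt) stayed minor. Pairs were formed by name, and whether the proteins of a pair stand in for each other in the ribosome was not tested. Over these 6 pairs the exact permutation p was 0.4 or higher, which does not show that the splits are equal.

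Groups that did not overlap were found for 17 of 85 members, against 23.5% of all genes tested. Of these, 13 were higher in *tulp1*-dKO (14.6% of all genes) and 4 lower (8.86% of all genes). The 13 included *rpl31*, *rps19bp1*, *rps10*, *rpl4*, *rpl10a*, *rps9*, *rps3*, *rplp0*, *rps2*, *rpl21*, *rpl7a* and *rpl3*, and apart from *rpl31* their log2 fold changes were 0.19 or lower. *rpl4*, which reaches into the exit tunnel, stood at 1769.9, 1812 and 1835 TPM in *tulp1*-dKO samples against 1626, 1651 and 1686 TPM in wt samples, a log2 fold change of 0.13 (adjusted p = 0.248, limma). The 4 lower were *rps27.1*, *rplp2*, *rpl12*, which sits at the base of the stalk, and *rplp1*.

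Differences between the *tulp1*-dKO samples were common to many members. Of 85 members, 75 had their lowest *tulp1*-dKO value in sample 1 and 57 their highest in sample 3. Members above the wt mean numbered 24, 67 and 73 of 85 in *tulp1*-dKO samples 1, 2 and 3, and 54, 50 and 26 in wt samples 1, 2 and 3. Relative to the wt mean on the log2 scale, the median member stood at −0.07, 0.04 and 0.07 in *tulp1*-dKO samples 1, 2 and 3. The median over all genes tested stood at 0.09, 0.03 and 0.04 in the same samples. The median coefficient of variation of a member was 4.89% in *tulp1*-dKO and 2.73% in wt, beside 13.1% and 12.7% for all genes tested. Most genes are far less abundant than the members. For the 322 other genes that average 300 TPM or more it was 7.61% in *tulp1*-dKO and 6.09% in wt. Genes often used as a reference for expression had log2 fold changes of −0.01 for *rpl13a*, −0.04 for *rps18* and 0.10 for *rplp0*, with adjusted p of 0.949, 0.778 and 0.433 (limma).

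Of the proteins of the ribosome whose genes the naming rule does not cover, none of 4 changed, also at an unadjusted p of at most 0.05 in limma. *rack1*, a scaffold on the small subunit, stood at 1815, 1742 and 1676 TPM in *tulp1*-dKO samples against 1584, 1620.1 and 1636 TPM in wt samples, a log2 fold change of 0.11 (adjusted p = 0.345, limma). *rps27a*, a member that encodes ubiquitin fused to a small subunit protein, had a log2 fold change of 0.10 and did not pass the test either (adjusted p = 0.515, limma). *faua* and *faub*, which encode a ubiquitin-like protein fused to a small subunit protein, had log2 fold changes of 0.03 and 0.17.

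The rest of the translation machinery gave 1 call. None of 58 initiation factor genes, 126 ribosome biogenesis genes or 76 mitochondrial ribosomal protein genes passed at an adjusted p of at most 0.05, with median log2 fold changes of 0.08, 0.04 and 0.06. At an unadjusted p of at most 0.05 in limma, 5 initiation factor genes (3 higher, 2 lower), 7 biogenesis genes (6 higher, 1 lower) and 7 mitochondrial ribosomal protein genes (3 higher, 4 lower) passed, each a smaller share than the 17.1% of all genes tested. Of the elongation and termination factor genes, 4 of 19 (3 higher, 1 lower) passed by that rule, a share close to the 17.1% for so few genes. At an adjusted p of at most 0.05, by which 1.22% of all genes tested fell, *eef1a1a* fell. The far more abundant *eef1a1l1*, with a mean of 4900 TPM, had a log2 fold change of 0.01 (adjusted p = 0.967, limma). *eef1a1a* encodes a form of the factor that delivers aminoacyl-tRNA. It stood at 54.7, 53.4 and 60.1 TPM in *tulp1*-dKO samples against 79.0, 86.4 and 93.4 TPM in wt samples, with a log2 fold change of −0.62 (adjusted p = 0.0273, limma).

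None of 25 p53 target genes tested passed at an adjusted p of at most 0.05 (limma). Their median log2 fold change was 0.11, with 18 above 0 and 7 below 0. Over all genes tested the median was 0.05, with 13259 above 0 and 9565 below 0. By limma 6 of the 25 p53 target genes (5 higher, 1 lower) were at or under an unadjusted p of 0.05. This is a somewhat larger share than the 17.1% of all genes tested, in a list of few genes. The 26 entries of the list summed to 755 to 799 TPM in *tulp1*-dKO samples against 658 to 705 TPM in wt samples. These ranges did not overlap. *ccng1*, a cyclin gene activated by p53, stood at 214, 236 and 225 TPM in *tulp1*-dKO samples against 183, 178 and 164 TPM in wt samples, with a log2 fold change of 0.36 (adjusted p = 0.0686, limma).

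Genes near *rpl31* were set beside it. Gene order was read from RefSeq annotation of assembly GRCz12tu, which is not the assembly of the deposited files, so no coordinates are given. Only tested genes whose names matched that annotation were placed, so genes with other names may lie between those listed. There *rpl31* lies on chromosome 9 and *tulp1b* on chromosome 6, while *tulp1a* was not matched by name. Of the 5 matched tested genes on each side of *rpl31*, 2 of 10 rose at an adjusted p of at most 0.05, against 0.67% of all genes tested. *cnot11*, next to *rpl31* among the matched genes, encodes a subunit of the CCR4-NOT deadenylase complex. It stood at 39.8, 28.7 and 31.3 TPM in *tulp1*-dKO samples against 19.0, 18.4 and 20.3 TPM in wt samples, with a log2 fold change of 0.77 (adjusted p = 0.0429, limma). *arsh*, a sulfatase gene 5 matched genes away on the other side, stood at 7.52, 6.83 and 5.63 TPM in *tulp1*-dKO samples against 2.92, 2.47 and 2.03 TPM in wt samples, with a log2 fold change of 1.40 (adjusted p = 0.0193, limma).

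The neighbours did not all move one way. The log2 fold changes of the 10 neighbours ran from −0.68 for *asmt* to 1.40 for *arsh*, with 5 above 0 and 5 below 0. *edar*, the nearest matched gene on the side of *arsh*, and *lcp1*, the next matched gene after *cnot11*, were higher in every *tulp1*-dKO sample than in any wt sample. They did not pass the test (log2 fold changes 0.66 and 0.40, adjusted p = 0.174 and 0.177, limma). The only other member matched to chromosome 9, *rpl8*, had a log2 fold change of 0.05. None of the 10 neighbours of *rps27.1*, on chromosome 19, passed the test. By limma, 1 of them was at or under an unadjusted p of 0.05, against 6 of the 10 neighbours of *rpl31* and 17.1% of all genes tested. These 6 neighbours of *rpl31* included genes above and below 0. Whether the neighbourhood of *rpl31* has a part in its rise was not tested.

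**Figure D5:**
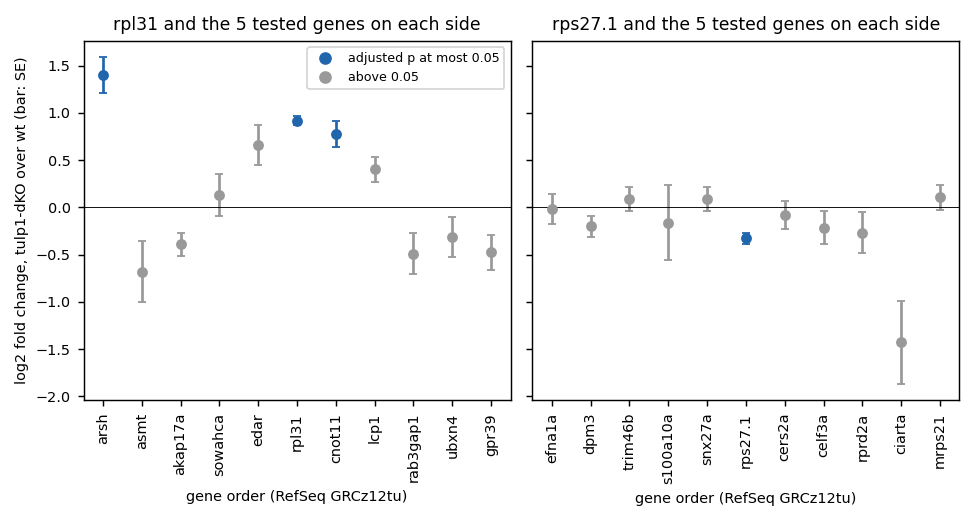
Log2 fold change (*tulp1*-dKO over wt, y axis) with its standard error for *rpl31* (left), *rps27.1* (right) and their neighbours. Shown are the 5 tested genes with matching names on each side of each, in the gene order of RefSeq assembly GRCz12tu (x axis). Genes at an adjusted p of at most 0.05 are in blue. On the left *arsh* (1.40), *rpl31* (0.92) and *cnot11* (0.77) are blue, and on the right *rps27.1* (−0.33) alone is.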

How the data were processed

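RNA of dissected heads was sequenced in 3 *tulp1*-dKO and 3 wt samples. Reads were mapped to GRCz11 with HISAT2 and quantified with RSEM by the authors and deposited as gene-level TPM. TPM values keep no depth, and the DESeq2 test of the authors, which needs counts, was not repeated. Values were fitted as log2(TPM + 0.1) by lmFit and trended eBayes (limma 3.58.1, R 4.3.3) for the 22824 genes averaging 0.5 TPM or more, and p-values were adjusted over all of them by Benjamini-Hochberg. The fit was tested on simulated data. Exact permutation tests used scipy 1.17.1, tables used pandas 2.3.3 with numpy 2.4.6, and figures used matplotlib 3.10.9 (Python 3.11.15).

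Names were matched without regard to case. Members, marker lists and tests were chosen with earlier results of these data known, *rpl31* included. Genes to be named were *rpl31*, members at an adjusted p of at most 0.05, the 5 highest and 5 lowest fold changes, the 5 most abundant, copies and stalk genes. Neighbours of *rpl31* and the leading genes of each list were also to be named, but for some lists these are not given. Other genes were named after their values were seen. Of the members, 83 matched RefSeq by name. Sequences were not used here, and some genes are counted but not reported singly. Alternatives were other pseudocounts, filters, scalings and variance settings, summed entries of the same name, the replicate number as a block, and each sample left out.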

Additional observations from a re-analysis of the deposited data

How the results depend on the processing

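*rpl31* rose at an adjusted p of at most 0.05 (limma) in all 17 alternatives, with adjusted p from 0.000452 to 0.0351 and a log2 fold change of 0.87 to 0.94 that never reached 1, and with a sample left out of 0.89 to 0.93. No alternative gave a member changed by at least 2-fold. The count of members at an adjusted p of at most 0.05 dropped to 1 (*rpl31*) without a filter on low values, under median ratio scaling, under quantile normalization, with TPM rescaled without the members, without the eBayes trend, with the replicate block, and with any sample left out (1 to 1), and was 6 with an unadjusted p. Over all genes, 432 were called by this rule as reported, 104 to 462 across alternatives, and 138 with the replicate block. The replicate numbers were not treated as pairs: same-numbered samples correlated at 0.03 in their deviations from the group means, under the limit of 0.1 set for pairing, although each sample correlated best with its own number. With the block, *rpl31* had an adjusted p of 0.017 and *rps27.1* of 0.137. The summed difference of −2671 TPM under median ratio scaling has the opposite sign to the reported one. With a sample left out the difference ran from −177 to 6808 TPM, and without *tulp1*-dKO sample 1, 72 of 85 members were above 0.

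Signs turned only for small values, in 11 of 27 named members besides *rpl31*. Under median ratio scaling these were *rpl5b* (−0.0097), *rpl6* (−0.012), *rpl7* (−0.020), *rpl7l1* (−0.030), *rps26* (−0.027) and *rps29* (−0.019). *rps12* became 0.014 under quantile normalization and 0.00017 with TPM rescaled without the members. With a sample left out, the ranges were −0.11 to 0.043 for *rpl22l1*, −0.086 to 0.00023 for the main *rpl37* entry, −0.011 to 0.073 for *rpl7*, −0.059 to 0.096 for *rpl7l1*, −0.033 to 0.036 for *rps12*, −0.082 to 0.013 for *rps27.2*, −0.012 to 0.079 for *rps29* and −0.13 to 0.15 for *rps8b*. The causes were not tested. TPM gives no depth, so counting error is unknown.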

Other observations

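The wider surroundings of *rpl31* were counted after the values were seen. Only tested genes with matching names were counted, 25 away from the nearer chromosome end and the 6 that remain towards it. Among these, 3 of 31 (9.68%) rose and none fell at an adjusted p of at most 0.05, against 1.89% called among all genes tested. The one beyond the nearest 5 was *actr3*, a subunit of the Arp2/3 complex that nucleates actin, at 120, 109 and 104 TPM in *tulp1*-dKO samples against 62.4, 62.1 and 63.5 TPM in wt samples, with a log2 fold change of 0.82 (adjusted p = 0.0050, limma). Among the 31, groups did not overlap for 11 that were higher and 4 that were lower, against 14.6% and 8.86% of all genes tested. By limma 16 of the 31 were at or under an unadjusted p of 0.05, against 17.1% of all genes tested. Their median log2 fold change was 0.21, with 20 above 0 and 11 below 0. Over all genes tested the median was 0.05, with 13259 above 0 and 9565 below 0. Around *rps27.1*, 3 of 50 tested genes (6.0%) were called, 2 higher and 1 lower, and groups did not overlap for 7 that were higher and 6 that were lower. Of these 50, 9 were at or under an unadjusted p of 0.05 (limma), and the median log2 fold change was −0.01.

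The genes left out of the members as S6 kinases, a family named after the ribosomal protein that some of its enzymes phosphorylate, gave no call in 11 tested at an adjusted p of at most 0.05, with a median log2 fold change of 0.06 and 1 gene at an unadjusted p of at most 0.05 (limma). *rps6ka4*, which encodes a kinase of the MSK type that acts on chromatin and transcription factors and had the smallest p of the list, stood at 7.86, 7.59 and 7.37 TPM in *tulp1*-dKO samples against 6.42, 5.88 and 6.51 TPM in wt samples, with an adjusted p of 0.275 (limma).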
